A study of Mus musculus with 2 samples.

Results

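The choroid plexus is the folded tissue of the brain ventricles that makes cerebrospinal fluid, and 10 genes known from its epithelium were followed here in mouse forebrain at embryonic day 13.5. They were chosen by name: Ttr, Folr1, Kcnj13, Sulf1, Enpp2, Clic6, Aqp1, Sostdc1, Wfdc2 and Trpm3. All 10 were found by gene identifier among the 43346 mouse genes of the deposited tables. The samples were total RNA-seq libraries of whole forebrain from healthy embryos of the strain B6NCrl, males and females pooled. There was 1 group, with no treatment and no other genotype, and it held 2 libraries, replicate 1 and replicate 2, each made from 10 ng of RNA with spike-in RNA added.

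The epithelium grows from the dorsal midline of the neural tube, where signals of the roof plate and the cortical hem (BMP and WNT ligands) set aside a sheet of cells that stops making neurons. The mature cells sit on leaky capillaries, are joined by tight junctions, carry cilia and move ions and water from blood to ventricle. They also secrete carrier proteins into the fluid. The forebrain has choroid plexus in the lateral ventricles and the third, so a whole forebrain sample holds a small amount of it among neurons and progenitors.

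Replicate 1 had 35378462 estimated counts and replicate 2 had 36793284. The labels call the libraries biological replicates and give separate biosamples with 1 shared donor code, and on that ground they were treated as 2 samples. Their counts differed by more than sampling noise (chi-square per degree of freedom 10.3 over 19008 genes), as separate preparations of 1 RNA can too. With 1 group no test between conditions exists, and no p-value is given: each difference below is between 1 library and 1 other library. Levels are in TPM, a relative abundance corrected for transcript length. Each TPM has a deposited interval that covers read counting and read assignment, at a level the sources used here do not state.

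All 10 genes were detected in both libraries at 1 TPM or more. The median of their mean levels was 9.69 TPM ± 4.63 (SD of the medians of the libraries, n = 2), with a median over the genes of 12.96 TPM in replicate 1 against 6.42 TPM in replicate 2. Ttr stood far above the rest and supplied 79.2% of the summed TPM of the 10 genes in replicate 1 and 76.1% in replicate 2. Every one of the 10 genes was lower in replicate 2. Their summed level was 530.38 TPM against 285.55 TPM, a ratio of 1.86. In whole tissue, fewer cells of a type and less RNA per cell cannot be told apart.

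**Figure D1:**
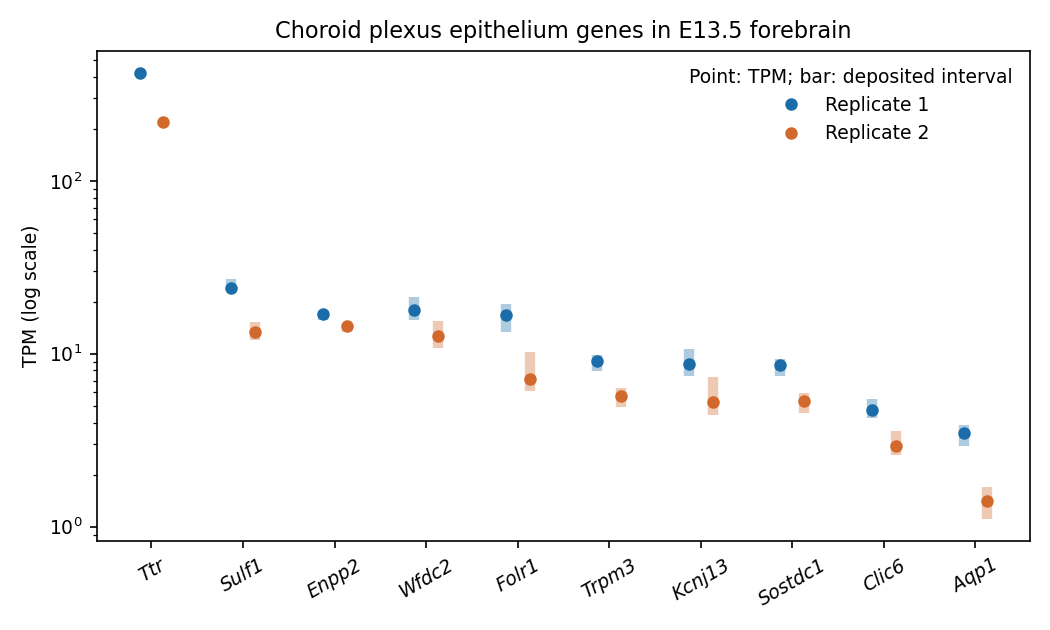
TPM (log axis) of the 10 genes in replicate 1 (blue) and replicate 2 (orange), in order of mean level. Points are TPM and bars are the deposited intervals. Each orange point lies below the blue point of its gene, from Ttr at 419.95 and 217.37 TPM down to Aqp1 at 3.49 and 1.4 TPM.

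Among the secreted proteins, Ttr encodes transthyretin, the carrier of thyroxine and of retinol-binding protein in the cerebrospinal fluid. Ttr (ENSMUSG00000061808, chr18:20665280-20674321 on mm10, plus strand) had 419.95 TPM in replicate 1 against 217.37 TPM in replicate 2, from 10456 and 5901 counts. Its mean of 319 TPM ± 143 (SD, n = 2) ranked 418 among 21473 protein-coding genes. The deposited intervals were 402 to 417 TPM and 207 to 218 TPM. They surround a posterior mean, and the TPM of replicate 1 lies above its own interval. Replicate 2 was at 51.8% of replicate 1, a log2 ratio of -0.95 with a 95% counting interval of -0.996 to -0.904. The counting interval is exact binomial on the counts, moved to the scale of the TPM ratio, and covers counting error only.

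Ttr is also made by liver and visceral yolk sac, and markers of these tissues differed in the same direction. Alb, the albumin gene, had 192 counts (4.44 TPM) in replicate 1 and 0 counts in replicate 2, which makes it at least 69.7-fold higher in replicate 1 when 3 counts are taken as the floor of a library. Afp, the alpha-fetoprotein gene, had 324 counts (7.33 TPM) and 7 counts (0.15 TPM). The other liver and yolk sac genes were Apoa1 (4.52 and 0.97 TPM), Apoa2 (6.94 and 2.15 TPM), Ahsg (1.24 and 0.06 TPM), Fgb (25 and 0 counts) and Apob (0.08 and 0.04 TPM). The 7 genes together held 745 counts in replicate 1 and 53 counts in replicate 2, whereas Ttr alone differed by 4555 counts. The part of liver or yolk sac RNA in the difference of Ttr was not tested.

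Enpp2 encodes autotaxin, a secreted enzyme that makes lysophosphatidic acid. Enpp2 (ENSMUSG00000022425, chr15:54838901-54952892, minus strand) had 17.0 TPM and 14.51 TPM in replicates 1 and 2, from 1129 and 1047 counts. It was the member closest to equal between the libraries, with a log2 ratio of -0.23 (counting interval -0.35 to -0.11). Autotaxin is also known from floor plate and oligodendrocyte lineage. Markers of the oligodendrocyte lineage summed to 24.91 TPM and 21 TPM, with Sox10, the factor that defines the lineage, at 0.41 and 0.38 TPM. Their part in the level of Enpp2 was not tested.

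Sulf1 encodes an extracellular sulfatase that trims heparan sulfate and so alters growth factor signalling. Sulf1 (ENSMUSG00000016918, chr1:12692277-12861192, plus strand) had 24.11 TPM in replicate 1 against 13.27 TPM in replicate 2, from 2326 and 1205 counts. Its log2 ratio of -0.86 had a counting interval of -0.96 to -0.76, wholly beyond a 1.5-fold difference. Sulf1 is also expressed in floor plate and mesenchyme, so its level need not come from choroid plexus alone. Floor plate markers summed to 20.25 TPM in replicate 1 against 12.63 TPM in replicate 2, led by Spon1 at 11.13 and 5.83 TPM, while Foxa2, which defines floor plate, was at 0.16 and 0.11 TPM. Markers of meninges and mesenchyme summed to 186 TPM and 208 TPM, the other direction. Their part in the difference of Sulf1 was not tested.

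Sostdc1 encodes a secreted antagonist of BMP and WNT signals. Sostdc1 (ENSMUSG00000036169, chr12:36314139-36318452, plus strand) had 8.55 TPM and 5.32 TPM in replicates 1 and 2, from 314 and 213 counts, a log2 ratio of -0.68. Wfdc2 encodes a small secreted protein of the whey acidic protein family. Wfdc2 (ENSMUSG00000017723, chr2:164562413-164568510, plus strand) had 17.88 TPM and 12.69 TPM, from 220 and 150 counts, a log2 ratio of -0.49. For both genes the deposited intervals of the libraries lay apart, by little for Wfdc2 (15.6 to 21.2 TPM against 10.8 to 15.5 TPM).

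Among the receptors and channels, Folr1 encodes the folate receptor that carries folate across the epithelium. Folr1 (ENSMUSG00000001827, chr7:101858331-101870788, minus strand) had 16.84 TPM in replicate 1 against 7.1 TPM in replicate 2, from 231 and 113 counts. It was 2.37-fold higher in replicate 1, a log2 ratio of -1.25 (counting interval -1.58 to -0.92). The gene body overlaps Anapc15 on the opposite strand, a gene at 92.45 and 80.42 TPM, but the genes share 0 exonic bases.

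Aqp1 encodes the water channel of the apical membrane, which faces the ventricle. Aqp1 (ENSMUSG00000004655, chr6:55336432-55348555, plus strand) was the lowest of the 10 genes, at 3.49 TPM in replicate 1 against 1.4 TPM in replicate 2, from 196 and 86 counts. Its log2 ratio of -1.32 was the farthest from 0 among the members (counting interval -1.70 to -0.94). Red blood cells also carry this channel. Slc4a1, the gene of a red cell membrane protein, had 5.49 and 2.16 TPM and was more than 1.5-fold lower in replicate 2. The globin genes of the erythroid list had log2 ratios between -0.33 (Hbb-y) and 0.25 (Hbb-bt). The part of red cells in the difference of Aqp1 was not tested.

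Kcnj13 encodes an inwardly rectifying potassium channel, Kir7.1. Kcnj13 (ENSMUSG00000079436, chr1:87386363-87394729, minus strand) had 8.73 TPM and 5.23 TPM in replicates 1 and 2, from 227 and 148 counts, a log2 ratio of -0.74. It lies inside Gigyf2, on the opposite strand, and 623 of its 1270 exonic bases overlap exons of Gigyf2, which had 55.61 TPM in replicate 1 against 52.83 TPM in replicate 2. The sources do not say if reads were counted by strand, and without strand the reads of Kcnj13 and Gigyf2 cannot be told apart in the shared bases. Retinal pigment epithelium also uses this channel. Of its 8 listed genes, Rpe65, which defines it, had 0 counts in both libraries, and Tyr, Tyrp1, Pmel and Rrh were at 0.24 TPM or less. Mitf had 1.46 and 0.76 TPM and Best1 had 1.02 and 0.62 TPM, lower in replicate 2 like Kcnj13. Rlbp1 had 30.72 and 39 TPM, the other direction. The list summed to 33.63 TPM and 41.04 TPM, most of it from Rlbp1, so the sum follows that gene. The part of retinal pigment epithelium in the level and the difference of Kcnj13 was not tested.

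Clic6 encodes a chloride intracellular channel protein. Clic6 (ENSMUSG00000022949, chr16:92485736-92541243, plus strand) had 4.75 TPM and 2.93 TPM in replicates 1 and 2, from 386 and 260 counts, a log2 ratio of -0.70. Trpm3 encodes a cation channel opened by heat and by steroids. Trpm3 (ENSMUSG00000052387, chr19:22139046-22995410, plus strand) had 9.08 TPM and 5.73 TPM, from 646 and 441 counts, a log2 ratio of -0.66. The deposited intervals of both genes lay apart between the libraries. The 10 genes lie on 9 chromosomes, and only Kcnj13 and Sulf1 share one.

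In order of mean level the genes were Ttr, Sulf1, Enpp2, Wfdc2, Folr1, Trpm3, Kcnj13, Sostdc1, Clic6 and Aqp1. Among neighbours in this order, only Ttr and Sulf1 were apart over every value of both libraries. Sostdc1 lay above Clic6, and Clic6 above Aqp1, with intervals apart within each library. Sulf1 and Enpp2, Enpp2 and Wfdc2, and Kcnj13 and Sostdc1 changed places between the libraries. Neighbours from Sulf1 to Sostdc1 in this order were therefore not resolved beyond the spread between libraries, although genes farther apart were: both values of Wfdc2 lay above every value of Trpm3, Kcnj13 and Sostdc1. By rank among protein-coding genes the members ran from 418 for Ttr through 6611 for Sulf1 to 11569 for Aqp1.

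The difference between the libraries was next set against all genes. All 10 members passed a mean expected count of 100, as did 12701 genes in all. All 10 were lower in replicate 2, as were 75.3% of all these genes, since the median log2 ratio over all genes was -0.11. The median log2 ratio of the members was -0.72, a difference of -0.61 from that of all genes. Scaling by TMM (which assumes that most genes are equal between libraries) moved the median of all genes to 0.0087 and that of the members to -0.59, and all 10 members stayed below 0.

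By TPM, 8 of the 10 genes were at least 1.5-fold lower in replicate 2, against 2.43% of all genes. Enpp2 and Wfdc2 were the members short of that fold. No member was 1.5-fold higher in replicate 2, where 0.512% of all genes were. With TMM the count was 5 of 10 (Ttr, Folr1, Kcnj13, Sulf1 and Aqp1), against 1.31% of all genes. Clic6 at -0.57, Sostdc1 at -0.56 and Trpm3 at -0.55 then fell short of the log2 threshold of -0.58, as did Wfdc2 at -0.55.

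The deposited intervals lay apart, with replicate 2 lower, for 10 of the 10 genes, against 25.6% of all genes. For 4 members the whole counting interval of the log2 ratio lay beyond 1.5-fold: Ttr, Folr1, Sulf1 and Aqp1. Over all genes the log2 ratio had an SD of 0.23, with a 5th percentile of -0.46, and 9 of the 10 members lay below that percentile, Enpp2 being the exception. Low genes scatter more, so the level matters. Among 371 genes of 256 to 512 TPM, the range that holds Ttr, 0.270% were 1.5-fold lower in replicate 2. This share is Ttr alone, whose log2 ratio of -0.95 was the lowest of the range. Among 1049 genes of 2 to 4 TPM, the range of Clic6 and Aqp1, 9.44% were 1.5-fold lower. In that range the 5th percentile was -0.74, and Clic6 at -0.70 was not below it.

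**Figure D2:**
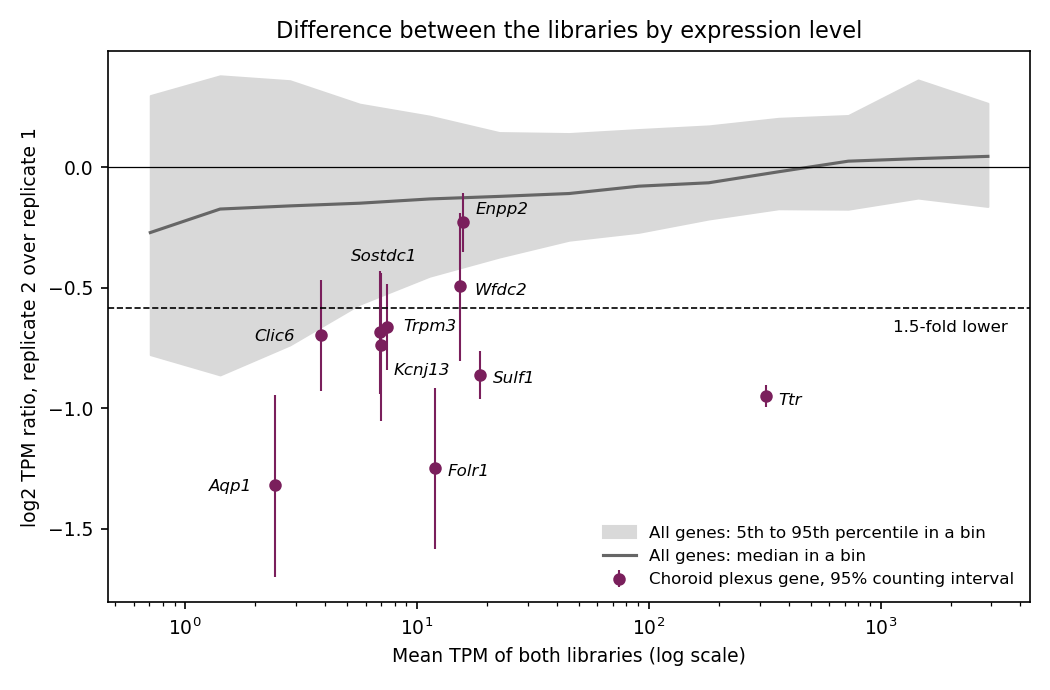
Log2 TPM ratio, replicate 2 over replicate 1, against mean TPM (log axis) for the 10 genes, with 95% counting intervals as bars. The grey band is the 5th to 95th percentile of all genes in bins of level, the grey line their median and the dashed line a 1.5-fold lower level. Ttr at -0.95 and Folr1 at -1.25 lie well under the band, and Enpp2 at -0.23 lies inside it.

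Genes that set up the choroid plexus from the dorsal midline were described next. Of 16 genes of roof plate and cortical hem, 11 passed the count minimum. Of these, 8 were at least 1.5-fold lower in replicate 2 (2.43% of all genes) and 0 were higher by that fold (0.512% of all genes). The median log2 ratio was -0.71, beside -0.11 for all genes. With TMM, 4 of the 11 were at least 1.5-fold lower, against 1.31% of all genes. Lmx1a, a roof plate transcription factor, had 7.73 TPM in replicate 1 against 2.06 TPM in replicate 2. The hem ligand gene Wnt8b had 9.95 and 4.26 TPM, and Rspo2, which encodes a secreted enhancer of WNT signals, had 11.4 and 4.64 TPM. The others past 1.5-fold were Rspo1 (7.13 and 3.99 TPM), Bmp5 (1.96 and 1.08 TPM), Wnt5a (13.55 and 8.28 TPM), Wnt3a (2.86 and 1.88 TPM) and Otx2 (29.92 and 19.74 TPM), a homeobox factor needed for choroid plexus. With TMM, Bmp5 (log2 ratio -0.30), Wnt5a (-0.36), Otx2 (-0.46) and Wnt3a (-0.48) were short of that fold. The deposited intervals of Bmp5 overlapped between the libraries. The most abundant gene of the list, Rspo3, had 36.18 and 28.08 TPM, and Msx1, a target of BMP signals, had 16.97 and 14.51 TPM. Gdf7, a roof plate ligand gene, was at 0 and 0.03 TPM.

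Choroid plexus cells carry many cilia, and 8 of 10 genes of the multiciliated cell programme passed the minimum. All 8 were lower in replicate 2, as were 75.3% of all genes, and 2 of the 8 were by 1.5-fold (2.43% of all genes) and 0 the other way. The median log2 ratio was -0.30, beside -0.11 for all genes. Those were Deup1 (2.87 and 1.21 TPM), which serves the amplification of centrioles, and Ccno (3.65 and 1.56 TPM). The factor genes Foxj1 (8.89 and 6.65 TPM) and Rfx3 (33.28 and 26.93 TPM) were closer between the libraries, as were Cfap126 (6.6 and 5.39 TPM) and Trp73 (4.97 and 4.18 TPM). Gmnc, an early regulator of the programme, was at 0.58 and 0.25 TPM.

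Of 13 genes for transport of ions and water, 8 passed the minimum, with a median log2 ratio of -0.31. By any amount, 7 of the 8 were lower in replicate 2, as were 75.3% of all genes. Only 1 was at least 1.5-fold lower (2.43% of all genes) and 0 were higher by that fold (0.512% of all genes). That gene was Kcne2, a potassium channel subunit at the apical membrane, with 13.81 TPM in replicate 1 against 7.96 TPM in replicate 2. The sodium pump subunit gene Atp1b1 (34.93 and 27.87 TPM), the carbonic anhydrase gene Car2 (23.11 and 19.87 TPM) and the anion exchanger gene Slc4a2 (17.71 and 14.29 TPM) were among the most abundant of the list. All of these are used by other cells of the forebrain too. Aqp4, the water channel of astrocytes, was at 0.21 and 0.24 TPM.

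Of 22 genes for barrier, receptors, carriers and secreted proteins, 12 passed the minimum, with a median log2 ratio of -0.24. None was 1.5-fold higher in replicate 2 (0.512% of all genes), and 3 were 1.5-fold lower (2.43% of all genes). They were the keratin gene Krt18 (5.43 and 2.03 TPM), the serotonin receptor gene Htr2c (5.03 and 2.88 TPM) and the endocytic receptor gene Lrp2 (0.9 and 0.6 TPM), which sits at the threshold and was short of it with TMM. Igfbp2 (294 and 262 TPM), Igf2 (47.73 and 45.68 TPM) and Slc31a1 (36.22 and 31.32 TPM) were among the most abundant. F5, a coagulation factor gene, was at 0.17 and 0.06 TPM. Of the 16 relatives of the members, 6 passed the minimum and 0 were past 1.5-fold in either direction. The most abundant were Clic4 (129 and 120 TPM), Clic1 (120 and 121 TPM), Trpm7 (38.17 and 33.17 TPM) and Sulf2 (27.27 and 22.9 TPM), whereas Kcnj16, another potassium channel gene, was at 0.05 and 0 TPM. Side by side, the log2 ratio was -0.70 for Clic6 and -0.11 for Clic4, -0.86 for Sulf1 and -0.25 for Sulf2, and -0.66 for Trpm3 and -0.20 for Trpm7.

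**Figure D3:**
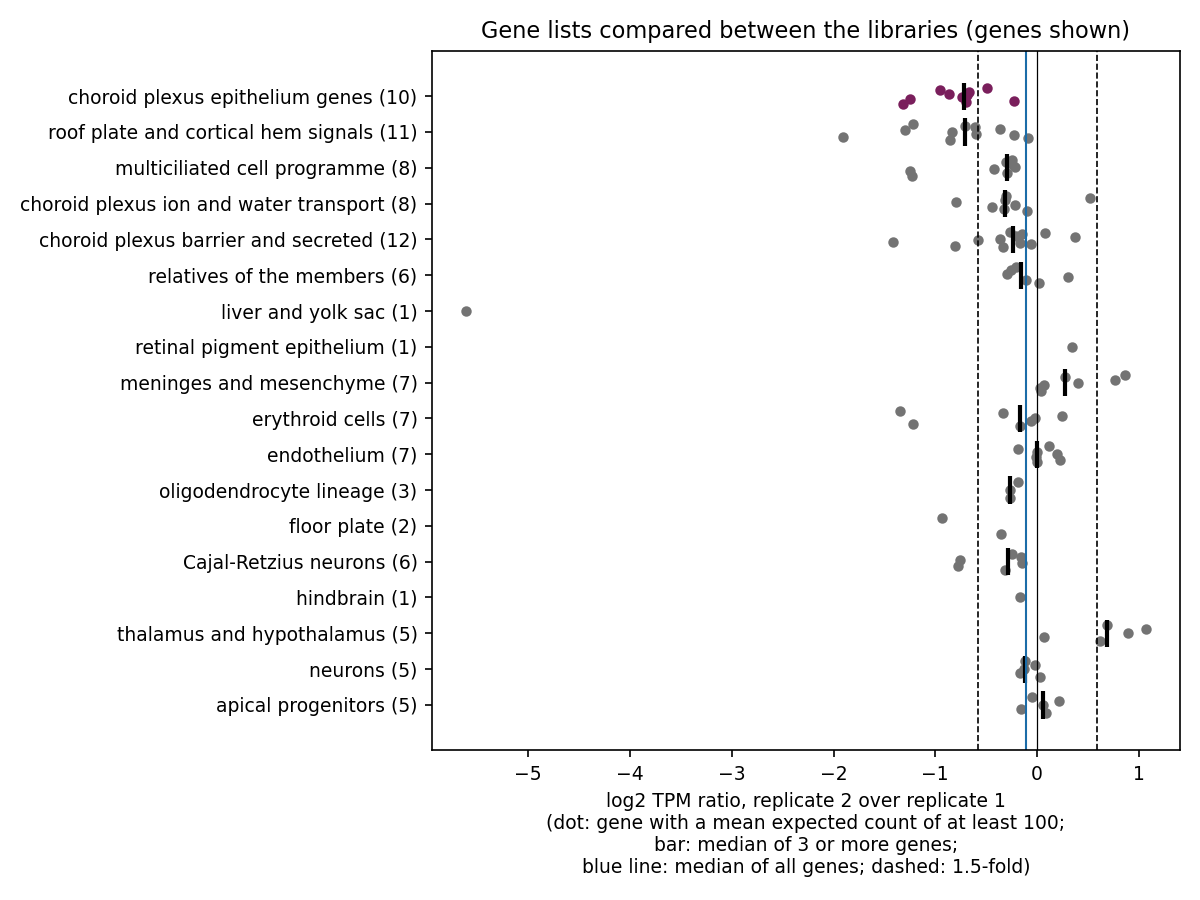
Log2 TPM ratio, replicate 2 over replicate 1, of single genes (dots) in 18 gene lists, with the number of genes shown in brackets, the list medians as bars, the median of all genes in blue and 1.5-fold as dashed lines. The 10 choroid plexus genes (purple) and the roof plate and hem genes have medians of -0.72 and -0.71, and thalamus and hypothalamus genes have one of 0.69.

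Markers of other regions and cells also moved between the libraries. Of 5 thalamus and hypothalamus genes at the minimum, 4 were at least 1.5-fold higher in replicate 2, against 0.512% of all genes. They were Six6 (log2 ratio 1.07), Pomc (0.89), Tcf7l2 (0.69) and Gbx2 (0.62). Tcf7l2 was the most abundant (108 and 174 TPM), and the list summed to 163 and 249 TPM. Of 7 meninges and mesenchyme genes, 2 were higher by that fold (Foxc1 and Slc6a13). Among 6 genes of Cajal-Retzius neurons, cells that arise in part from the hem, 2 were lower by that fold (Lhx5 and Ebf3). So was 1 of 2 floor plate genes. Of all genes, 2.43% were lower by that fold. The 7 endothelial genes, the 5 neuronal genes, the 5 apical progenitor genes and the 3 oligodendrocyte genes had 0 past the fold, with medians of 0.0019, -0.12, 0.056 and -0.27. The retinal pigment and hindbrain lists each had 1 gene at the minimum and 0 past the fold, and Hoxb3 had 0 counts in both libraries. The part of these lists in the difference of the 10 genes was not tested.

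Transcripts were then compared within the genes, by share of the gene's TPM. A single transcript held all estimated reads of Ttr, Aqp1, Sostdc1, Clic6 and Kcnj13. For Ttr, Aqp1 and Sostdc1 it is the only transcript listed, so its share was fixed by the annotation. From the posterior mean TPM, Clic6-201 held 95.9% and 93.8% in replicates 1 and 2, and Kcnj13-201 held 92.4% and 86.7%. Enpp2 was carried mainly by Enpp2-201, at 87.0% and 88.6% in replicates 1 and 2. For Trpm3, transcripts that start at chr19:22692786-22692788 held 75.03% and 76.61% of the TPM, led by Trpm3-205 (49.0% and 48.3%) and Trpm3-204 (20.9% and 19.5%). The start at position 22448232 (Trpm3-201) held 17.4% and 23.4%, and the first start of the gene, at 22139117, held 7.59% and 0%.

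Transcripts of Sulf1 differed by their starts. The transcripts that start at chr1:12692277-12692532 had 15.31 TPM in replicate 1 against 5.59 TPM in replicate 2, or 63.5% and 42.2% of the gene. Those that start at chr1:12718459-12718529, farther downstream, had 2.15 TPM and 2.38 TPM, or 8.92% and 17.9%. The annotated transcript Sulf1-204, which begins inside the gene, had 6.23 TPM and 3.5 TPM, or 25.8% and 26.4%, and Sulf1-209 had 0 and 1.61 TPM. By the authors' assignment of reads to transcripts, the first starts and Sulf1-204 were thus lower in replicate 2, and the second starts were not. Shares from the posterior mean TPM had the same direction: 22.9% and 12.8% for Sulf1-203, of the first starts, and 6.10% and 12.4% for Sulf1-201, of the second.

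For Wfdc2, Wfdc2-201 had 9.22 TPM and 4.66 TPM, and the shorter Wfdc2-202 had 7.72 TPM and 7.68 TPM, from 56.65 and 61.42 counts. Its share was 43.2% in replicate 1 and 60.5% in replicate 2. Folr1 was divided among many short transcripts, of which Folr1-201 held 52.8% and 42.0%, and Folr1-213, of 331 bases, held 16.6% and 38.1% from 14.38 and 15.2 counts. Such low counts leave the division of Folr1 unresolved, and from the posterior mean TPM its leading transcript held 43.5% and 28.4%.

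**Figure D4:**
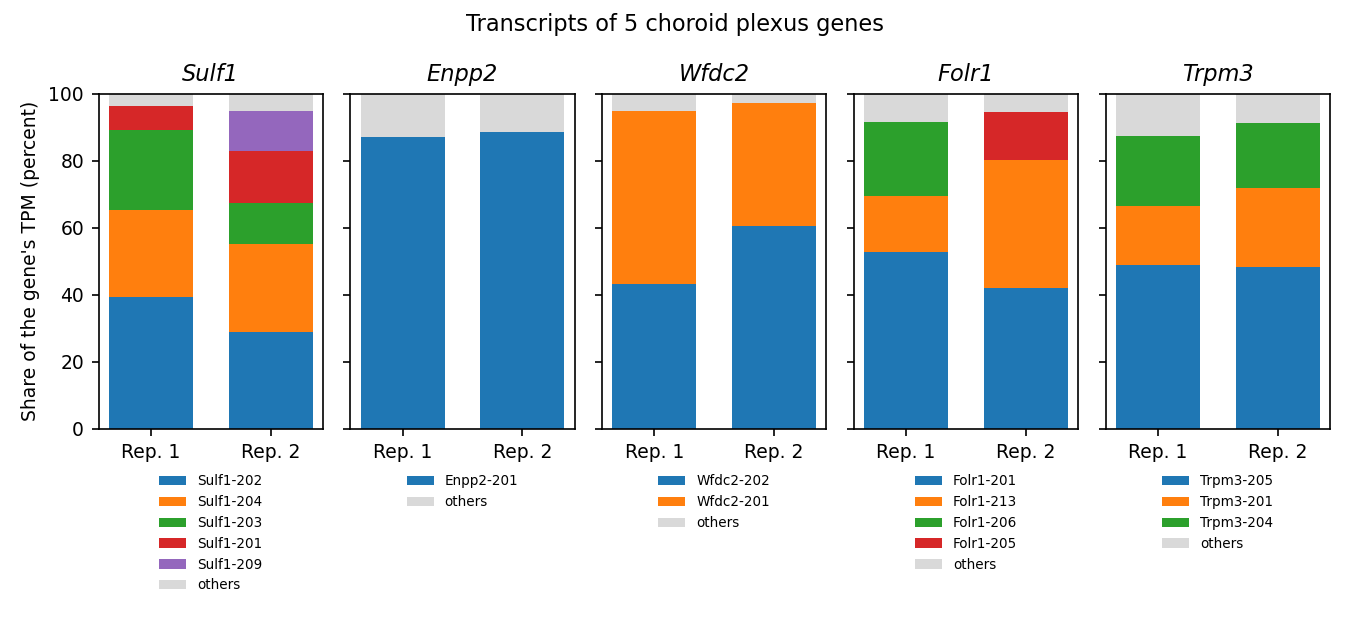
Share of the gene's TPM (percent) held by each transcript of Sulf1, Enpp2, Wfdc2, Folr1 and Trpm3 in replicates 1 and 2. Transcripts of at least 10% in either library are coloured and the rest are grey. Enpp2-201 stays near 88% of Enpp2, while Wfdc2-202 holds 43.2% of Wfdc2 in replicate 1 and 60.5% in replicate 2.

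The sequence before the starts of members was searched for 5 short motifs, as a description only. RefSeq windows (GRCm38.p6) of the 250 bases before a start were given for 4 members (Kcnj13, Wfdc2, Aqp1 and Trpm3), 6 windows in all. Of these, 3 hold no annotated exon of their own gene. Exons of other genes were not looked for. The motifs were TAATCC (the core bound by homeobox factors of the Otx type), CAGCTG (an E-box), TGTTTAC (a forkhead site), CCAAT and TATAAA, read on both strands, with no overlap among the matches found. The windows of Kcnj13 and Aqp1 are shown because each lies before the start of the single transcript that carried the gene, and because they differ in what was found. The Kcnj13 window ends next to that start. The Aqp1 window ends upstream of the start of its transcript at position 55336432, and the bases between were not searched. Capitals mark motif matches.
Kcnj13, chr1:87394730-87394979, minus strand: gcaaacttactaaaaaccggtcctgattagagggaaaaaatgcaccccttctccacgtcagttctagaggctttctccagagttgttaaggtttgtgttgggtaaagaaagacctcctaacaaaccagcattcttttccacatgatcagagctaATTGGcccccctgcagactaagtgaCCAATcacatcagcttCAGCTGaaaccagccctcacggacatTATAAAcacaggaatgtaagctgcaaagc
Aqp1, chr6:55336049-55336298, plus strand: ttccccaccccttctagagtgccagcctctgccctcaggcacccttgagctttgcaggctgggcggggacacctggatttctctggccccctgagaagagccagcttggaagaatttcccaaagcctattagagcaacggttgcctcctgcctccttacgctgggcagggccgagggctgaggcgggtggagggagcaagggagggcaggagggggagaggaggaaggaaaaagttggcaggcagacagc

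The Kcnj13 window holds TATAAA at -29 to -24 from the start, CAGCTG at -55 to -50, CCAAT at -71 to -67 and CCAAT on the other strand at -96 to -92. The Aqp1 window, which stops short of the transcript start, holds none of the 5. The window before the RefSeq start of Trpm3 at position 22139046 holds CCAAT at -67 to -63. It lies upstream of the transcript start at 22139117 that carried 7.59% and 0% of the gene. Over 32851 windows of the same length, TAATCC was found in 6.25%, CAGCTG in 13.0%, TGTTTAC in 3.17%, CCAAT in 33.8% and TATAAA in 12.4%. No motif was found in all of the members' windows. A match is a string of letters and not a measured binding site.

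Trpm3 also hosts a microRNA, mir-204, on its own strand, with the mature arm at chr19:22750610-22750631. Its relative miR-211 lies in Trpm1, a gene at 0.39 and 0.11 TPM here. The mature RefSeq sequences are shown to place what these libraries cannot measure, with the seed (bases 2 to 8) in capitals.
mmu-miR-204-5p: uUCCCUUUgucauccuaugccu
mmu-miR-211-5p: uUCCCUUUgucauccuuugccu
They share the seed UCCCUUU and differ at 1 base. The Mir204 row of the tables is 80 bases long, under the length the quantification can use, and is listed at 0 by construction, and the RNA was selected for more than 200 bases. The level of Trpm3 is thus that of the host transcript alone.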

How the data were processed

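Per the labels' protocols, forebrain RNA above 200 bases was isolated by mirVana, and a kit for cDNA from little RNA is referenced. The authors deposited a gene table and a transcript table for each library, on mm10 with GENCODE M4, per the file headers and the notes deposited with them. The deposited expected counts are estimated reads per feature, with shared reads divided. The deposited TPM is scaled to effective length over all rows. The deposited FPKM relates reads to effective length and to the size of the library. The percent column that the authors deposited for transcripts (share of the gene) was recomputed from TPM. Interval bounds that the authors deposited for TPM, treated as a score, surround a posterior mean. Aligner, version of the quantification, length of reads and strand setting were not given in the sources used here.

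Genes were matched by identifier to GENCODE M21 on GRCm38, and 42462 of 43346 matched. The log2 ratio is TPM in replicate 2 over replicate 1, without pseudocount, where the expected counts average 100 or more. Lists are described by counts past 1.5-fold and medians beside all genes. Counting intervals are exact binomial (95%) on rounded counts, moved to the scale of the TPM ratio, and a count of 0 allows 3 counts. TMM (edgeR 4.0.16) and DESeq2 1.42.0 size factors served as scalings only, on rounded counts, and the ratio scripts were tested on simulated data. The expected counts of 8 members were whole within 0.005 in both libraries (not Kcnj13 and Trpm3).

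The 10 genes, the 17 other lists and the motifs were chosen with earlier results of these data known. Named from each list are the 4 genes of highest mean TPM, the lowest, those with no count where 5 or fewer and, for choroid plexus biology, those past 1.5-fold. A few listed genes are not reported here, some genes of the cell type lists are given as counts only, and genes named to place a member (Afp, Sox10, Foxa2, Slc4a1, Hbb-y, Six6, Pomc, the retinal pigment genes, Foxc1, Slc6a13, Lhx5 and Ebf3, and the other liver genes) were chosen after their values were seen. Transcripts are named from a share of 10% in both libraries, and others for starts were chosen after their values were seen.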

Additional observations from a re-analysis of the deposited data

How the results depend on the processing

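The number of choroid plexus genes at least 1.5-fold lower in replicate 2 was 8, against 2.43% of all genes. It was 5 with TMM-scaled counts and 5 with DESeq2 size factors, against 1.31% of all genes with each. At a 2-fold limit it was 2 (Folr1 and Aqp1), where 0.480% of all genes passed. Removing a trend on length and GC content left 6, against 1.58% of all genes. The median log2 ratio, -0.72 by TPM, stayed below 0 under each scaling of counts, from -0.59 with DESeq2 size factors to -0.65 with counts per total count. By TPM, the mean over the genes was -0.79, and the median without Ttr was -0.70. Intervals of FPKM lay apart for 7 of the 10 genes, against 10 for TPM. The share of all genes with FPKM intervals apart is not given here, so the 7 has no background beside it. Shares of 5 transcripts moved by more than the SD of the libraries with the posterior mean TPM, the most for Folr1-201, from 47.4% to 35.9%. With 1 library on each side, the ratio and its counts could not be computed without a replicate. No paired analysis was possible because the libraries form 1 group. Depth limits Aqp1, at 86 counts in replicate 2, and the transcripts of Folr1.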
